A study of Mus musculus with 2 samples.

Results

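Cells that carried fibroblast transcripts were looked for among the barcodes left after CD45 bead enrichment of subcutaneous CT26 tumours. CT26 is a mouse colorectal carcinoma line, here grown in BALB/c mice of its own strain. A barcode was kept with at least 200 genes and at most 10% mitochondrial unique molecular identifiers (UMIs, each standing for 1 captured transcript). Members were chosen by measured UMIs, with at least 3 UMIs of Dcn and Lum together, at least 10 of Col1a2 and Col3a1, at least 1 of Pdgfra and Pdgfrb, at most 2 of Ptprc and at most 15 of C1qa, C1qb and C1qc. There were 250 members among 27362 kept barcodes, of which 55 of 13875 came from the arginine-deficient library and 195 of 13487 from the control library. Because the beads select leukocytes, these numbers say nothing of how common such cells were in the tumours.

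The mice were 5 weeks old and received either a normal diet or a diet without arginine but with the same calories, starting 1 week before tumour cells were injected, and the tumours were taken on day 20. Each diet is represented by 1 library, and the labels do not say how many mice went into it. The library labelled Arg is read here as the arginine-deficient arm, since its own label names no diet. With 1 library per diet, no difference between the diets has a replicate check, so no test was made, and the intervals below cover counting error only.

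Fibroblasts build and remodel the extracellular matrix. Col1a1 and Col1a2 encode the chains that together form type I collagen, Col3a1 encodes the chain of type III collagen, and Dcn and Lum encode small proteoglycans that bind collagen fibrils. Pdgfra and Pdgfrb are receptors for platelet-derived growth factors, through which fibroblasts and mural cells are stimulated to grow and migrate, and fibroblasts of tumours are also known as sources of chemokines such as Cxcl12.

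The data went against the label of tumour fibroblasts for most members. When the 250 members were clustered, 5 groups formed, and 1 of them, of 45 cells, held the same cells at a finer clustering. The 5 markers (Dcn, Lum, Col1a2, Col3a1 and Pdgfra) were each highest in it, but they were also part of the rule, and the name rests beside them on matrix genes that the rule did not use. These 45 cells, 12 of the arginine-deficient and 33 of the control library, are called fibroblast-like members below. The other 205 cells, 43 and 162, are called Col1a1-low members after their level of that collagen gene. Levels are CPM, the UMIs of a gene in a group of cells scaled by the summed UMIs of that group in the library, and pairs of values are given with the arginine-deficient library first.

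Col1a1, which the rule did not use, stood at 15460 and 10573 CPM in the fibroblast-like members. In the Col1a1-low members it stood at 75.2 and 118 CPM, although the same cells held Col1a2 at 802 and 862 CPM. Col1a2 transcripts therefore numbered 0.896 and 0.857 per Col1a1 transcript in the fibroblast-like members, against 10.7 and 7.29 in the Col1a1-low members. Cell by cell, the fibroblast-like members held a median of 116 and 260 Col1a1 UMIs, and the Col1a1-low members a median of 2 in both libraries. The highest Col1a1-low member held 31 Col1a1 UMIs and the lowest fibroblast-like member 4, so the groups overlapped in UMIs. Since the clusters were formed from these same genes, the contrast is a description and no test applies to it.

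**Figure D1:**
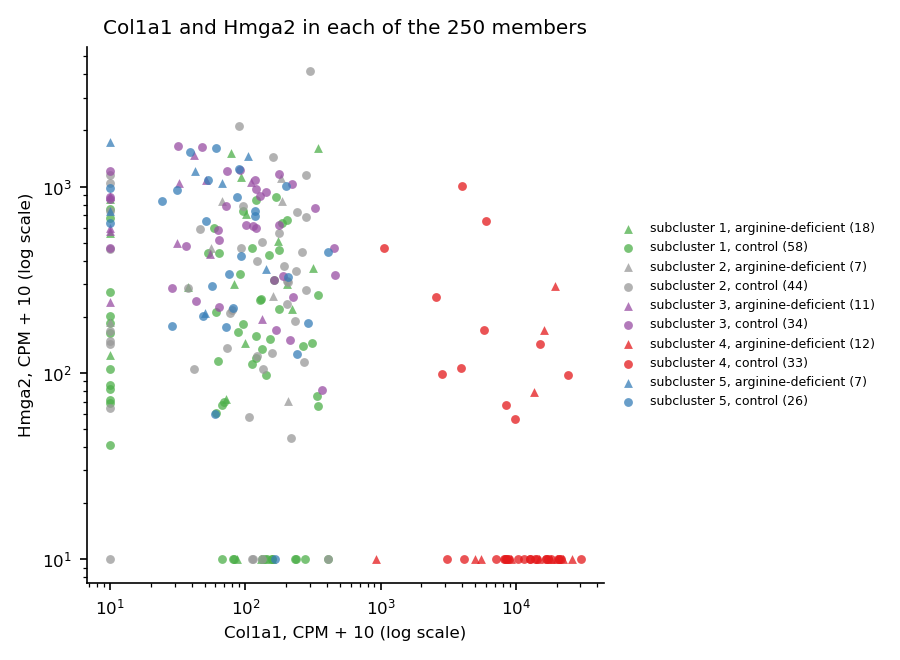
Each point is 1 of the 250 members, placed by its Col1a1 level (x axis) and its Hmga2 level (y axis), both in CPM with 10 added on log scales. Colours are the 5 groups and shapes the 2 libraries. The 45 fibroblast-like members (red, subcluster 4) lie at the right, while the other 205 lie at the left and mostly high.

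Other matrix genes divided the members in the same way. Mmp2, a gelatinase, was at 424 and 418 CPM in the fibroblast-like members and at 0 and 1.42 CPM in the Col1a1-low members. Postn, the matricellular protein periostin, was at 1071 and 976 CPM against 0 and 0.608 CPM. Fstl1, a secreted follistatin-like glycoprotein, was at 1722 and 2328 CPM against 3.93 and 7.50 CPM. Lum and Pdgfra, which were part of the rule, stood at only 13.7 and 15.4 CPM and at 18.3 and 26.1 CPM in the Col1a1-low members, which met the rule largely through Dcn (701 and 964 CPM), Col1a2 and Pdgfrb (60.9 and 53.1 CPM, found in 32 of 43 and 133 of 162 cells).

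A second set of genes ran the other way. Hmga2, a chromatin protein of embryonic and transformed cells, was at 711 and 528 CPM in the Col1a1-low members against 93.1 and 104 CPM in the fibroblast-like ones. S100a4, a calcium-binding protein, was at 4399 and 3773 CPM against 119 and 289 CPM. Xist, the RNA that silences an X chromosome in female cells, was at 5.23 and 9.73 CPM in the Col1a1-low members and at 605 and 468 CPM in the fibroblast-like members. Keratin-positive barcodes had at least 3 UMIs of Krt8 and Krt18, keratins of epithelial cells, and numbered 6 and 86 outside the members. They were also limited to at most 2 UMIs of Ptprc, 15 of the C1q genes and 2 of Dcn and Lum together. In these, Hmga2 was at 725 and 730 CPM, S100a4 at 2874 and 4383 CPM and Xist at 0 and 8.60 CPM. C1q macrophages (2394 and 4143 barcodes with a UMI of Ptprc and over 15 of the C1q genes) carried Xist at 545 and 568 CPM.

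Over whole profiles the Col1a1-low members lay closest to the keratin-positive barcodes. Across 3416 and 3335 genes, log levels of these groups correlated with Pearson's r of 0.855 and 0.934, and 2.46% and 0.600% of genes were more than 4-fold apart. Between fibroblast-like members and keratin-positive barcodes r was 0.283 and 0.379 across 4125 and 3904 genes, with 25.5% and 18.8% of genes more than 4-fold apart, and between the 2 kinds of members it was 0.392 and 0.462. These correlations run across genes within 1 library and carry no test, as genes are not replicates and the groups share the library's free RNA. Keratin itself was low in the Col1a1-low members, with Krt18 at 5.89 and 7.70 CPM and Krt8 at 0 in both libraries. The keratin-positive barcodes held 136 and 105 CPM of Krt18, a gap favoured by their selection for these keratins. Of 10 epithelial marker genes, which include both keratins, 2 and 3 were over 20 CPM in the Col1a1-low members. In the keratin-positive barcodes 3 and 3 were. The 10 genes summed to 135 and 128 CPM against 469 and 237 CPM.

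**Figure D2:**
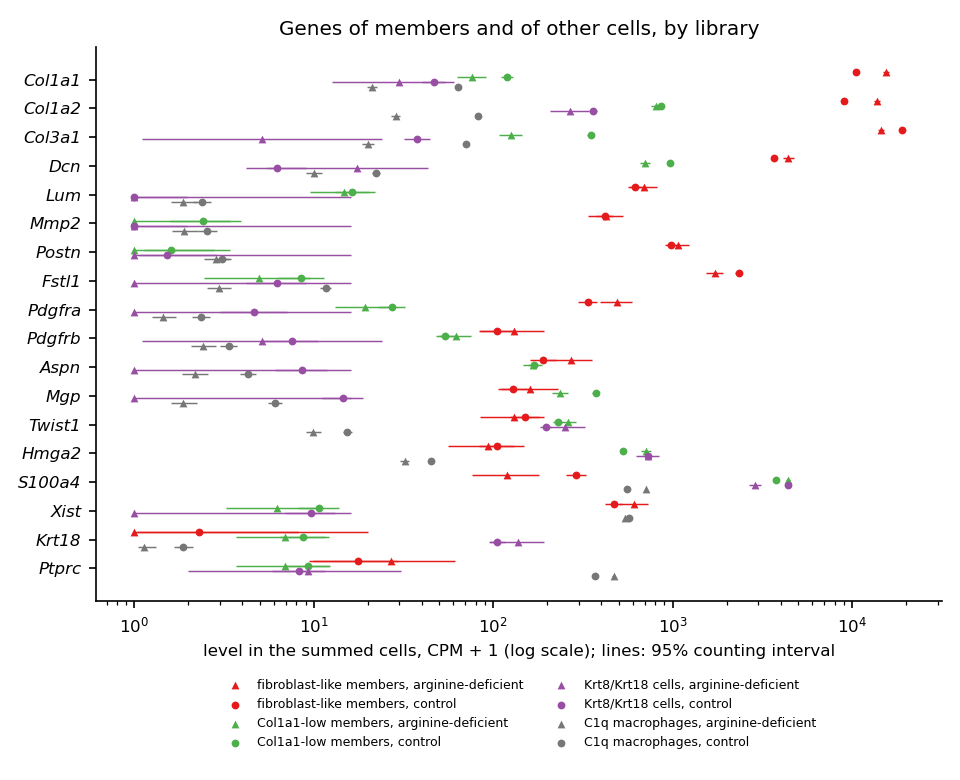
Level of 18 genes (x axis, CPM with 1 added, log scale; lines are 95% counting intervals) in fibroblast-like members, Col1a1-low members, keratin-positive barcodes and C1q macrophages, with triangles for the arginine-deficient and circles for the control library. Col1a1, Mmp2, Postn and Xist place the Col1a1-low members beside the keratin-positive barcodes, and Mgp is highest in the Col1a1-low members. Dcn and Col1a2 in the Col1a1-low members lie between the keratin-positive barcodes and the fibroblast-like members. For these genes the gap to the keratin-positive barcodes was favoured by selection. Those barcodes were capped in UMIs of Dcn and Lum, while members needed a minimum of these and of Col1a2 and Col3a1. That gap is therefore no measure of likeness.

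The fibroblast-like members held 193338 UMIs in the arginine-deficient and 777341 in the control library, and the Col1a1-low members 1528235 and 4934712. A fibroblast-like member had a median of 12660 and 22629 UMIs, a Col1a1-low member 31477 and 25078. A level of 50 CPM, the least that counted as measured, stands for 9.67 UMIs in the arginine-deficient fibroblast-like members, so that the values of weakly expressed genes there are coarse. No member was called a doublet, and none of the 44 barcodes found in both libraries was a member. Median mitochondrial shares were 1.98% and 1.16% in the fibroblast-like members and 2.68% and 2.39% in the Col1a1-low members.

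Markers of other cells stood as follows in the fibroblast-like members, where the rule itself had capped Ptprc and the C1q genes. The 5 leukocyte genes summed to 212 and 284 CPM, led by Srgn at 145 and 185 CPM. The 12 macrophage genes summed to 786 and 758 CPM, led by Lyz2, against 26168 and 24100 CPM in the macrophages. The 8 endothelial genes summed to 36.2 and 12.9 CPM with 5 and 4 of them at 0, and the 9 mural genes to 36.2 and 43.7 CPM with 6 and 4 at 0. The 4 adipocyte genes were at 0 in both libraries, and the 5 Schwann genes summed to 10.3 and 9.01 CPM. In C1q macrophages, which should lack it, Col1a1 stood at 20.1 and 62.3 CPM, and 4.51% and 7.43% of them held a UMI of it at median depths of 13610 and 15034 UMIs, which is the background level of Col1a1 here.

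The genes that stood highest in the fibroblast-like members over all other kept barcodes, by the smaller of the ratios in the 2 libraries, were led by Mfap5. Mfap5, a microfibril protein, stood 201 times higher, Col1a1 173 times, Fstl1 167 times and Col5a2, a chain of type V collagen that sits within type I fibrils, 146 times. Rarres2, the precursor of the chemoattractant chemerin, stood 144 times higher, and Bgn (biglycan) and Postn 123 times each. Sparc, a collagen-binding glycoprotein, stood 85.9 times higher at 7846 and 8497 CPM. Spp1 (osteopontin) was the other matricellular gene of that size, at 11503 and 13196 CPM, but the other barcodes held 1979 and 2542 CPM of it.

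Some genes were found in different cells among the 45. Pi16, known in mouse as a marker of adventitial fibroblasts, was found in 27 cells and Acta2, the smooth-muscle actin of contractile fibroblasts, in 19, with 6 cells holding both. Of the 19 Acta2-positive cells, 18 also held Cthrc1, a secreted protein with a collagen triple helix repeat, but so did 35 of all 45 cells. Acta2-positive cells carried 98.4% of the UMIs of Tagln, another contractile gene. Pi16-positive cells carried 90.7% of the UMIs of Dpp4, a surface peptidase of the same adventitial cells. Ptx3, a secreted pattern-recognition protein, was found in 29 cells, which carried 92.7% of the Pi16 UMIs. The cells with Cxcl12, 37 of the 45 and thus most of them, carried 91.9% of the Ptx3 UMIs. Thbs4 (9 cells) and Crabp1 (11 cells) were never found together. Detection follows depth, which ranged widely among these cells, so the overlaps are counts and not classes.

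The 205 Col1a1-low members formed the other 4 groups. The first (18 and 58 cells) was led by Aspn (asporin), at 563 and 579 CPM, with Ogn and Omd, which encode small leucine-rich proteoglycans, and Mgp, an inhibitor of calcification. Aspn, Omd and Ogn lie next to each other on chromosome 13, at chr13:49544443-49567565 for Aspn (GRCm38, plus strand). The leading genes of the second (7 and 44 cells) included Lcn2, Sncg and Slurp1, and those of the third (11 and 34 cells) Pthlh, Nppb, Esm1 and Ero1l. The fourth (7 and 26 cells) was led by the mitotic genes Cenpf, Ube2c and Hmmr. Col1a1 was between 33.9 and 135 CPM in all 4 groups and both libraries, and Hmga2 between 239 and 1091 CPM. Over all other kept barcodes, Mgp (16.9 times), Aspn (16.1 times) and Ogn (11.7 times) stood highest in the Col1a1-low members as a whole.

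Barcodes just outside the Dcn and Lum limit had Col1a1 at the level of the Col1a1-low members. With Dcn and Lum at 3 to 5 UMIs, inside the rule, there were 9 and 37 cells, of which 1 and 0 were fibroblast-like, and Col1a1 stood at 91.4 and 139 CPM. With 1 to 2 UMIs and the rest of the rule met there were 13 and 68 barcodes, with Col1a1 at 87.1 and 97.3 CPM and Hmga2 at 690.2 and 712 CPM. With no UMI there were 53 and 208. Past the Ptprc limit it was otherwise. The 13 and 24 barcodes left out for 3 or more Ptprc UMIs held Col1a1 at 2948 and 2078 CPM. Of these, 3 and 6 held at least 20 Col1a1 UMIs. Only 2 and 6 lay just past the limit, at 3 to 4 Ptprc UMIs, and 0 and 3 of those were called doublets. Of the fibroblast-like cells, 1 lay near the Dcn and Lum limit, within 3 to 5 UMIs.

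Between the diets, the log2 ratio was taken of arginine-deficient over control levels with 5 CPM added to each, and a gene was measured with at least 50 CPM in 1 library and 30 UMIs over both. Among all 250 members, 3362 genes were measured, of which 18 (0.535%) were at least 2-fold higher and 38 (1.13%) at least 2-fold lower in the arginine-deficient library, 1.67% either way, and 48.8% were higher by any amount. That comparison mixed both kinds of cells. Igfbp3 and Cxcl12 (log2 ratios 1.59 and 1.33) rested on the fibroblast-like members, and without those the ratios were -0.17 and -0.31. The kinds are therefore given apart.

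In the fibroblast-like members 3615 genes were measured, 186 (5.15%) at least 2-fold higher and 161 (4.45%) at least 2-fold lower in the arginine-deficient library, 9.6% either way, and 56.1% were higher by any amount. Scaling by trimmed means (TMM) shifted the median gene by -0.21 and turned the split to 98 higher and 268 lower. Keeping only members with no Ptprc and at most 3 C1q UMIs gave 169 higher and 274 lower. In each library 1 deep cell weighed heavily, holding 22.6% of the arginine-deficient and 9.70% of the control UMIs, and without it the counts were 191 and 217. Directions are therefore given below for genes and lists beside these limits.

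The collagens differed by gene. Col1a1 and Col1a2 (13846 and 9062 CPM) were higher in the arginine-deficient fibroblast-like members, with ratios of 1.46 (counting interval 1.40 to 1.52) and 1.53 (1.46 to 1.6), and Col3a1 was lower, at 14560 and 19061 CPM (ratio interval 0.733 to 0.795). In single cells, Col1a1 ran from 917 through a median of 15493 to 25841 CPM in the arginine-deficient library and from 1046 through 9787 to 30090 CPM in the control library. Col3a1 ran from 1375 through 13172 to 61705 CPM and from 916 through 18015 to 65508 CPM. The cells of the libraries overlapped over nearly their whole range for both genes. Of 7 measured fibrillar collagens 5 were higher and 1 of them past 2-fold, against 56.1% and 5.15% of all measured genes. Their median log2 ratio was 0.35, against 0.09 over all measured genes. It stayed between 0.18 and 0.37 over the alternatives tried. Dcn, at 4422 and 3651 CPM, and Fn1 (fibronectin), at 2757 and 3122 CPM, were little apart.

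Enzymes and inhibitors that act on matrix showed some of the wider gaps. Timp1, an inhibitor of matrix metalloproteinases, was at 2079 and 5223 CPM. It was found in 10 of 12 arginine-deficient cells (lowest 0, median 455, highest 5719 CPM) and in 33 of 33 control cells (174, 1732 and 19179 CPM). Its log2 ratio was -1.33, and -0.85 without the deepest cells. Plod2, which hydroxylates collagen lysines, was at 56.9 and 243 CPM, and Adamts5, a proteoglycan-cleaving protease, at 243 and 498 CPM. Mmp3 (stromelysin) was in contrast higher, at 1257 and 740 CPM, and Tgm2, a crosslinking transglutaminase, was at 171 and 51.5 CPM. As a list, the 20 measured proteases and inhibitors had 10 higher, against 56.1% of all measured genes, and a median of -0.08. No common direction was seen.

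**Figure D3:**
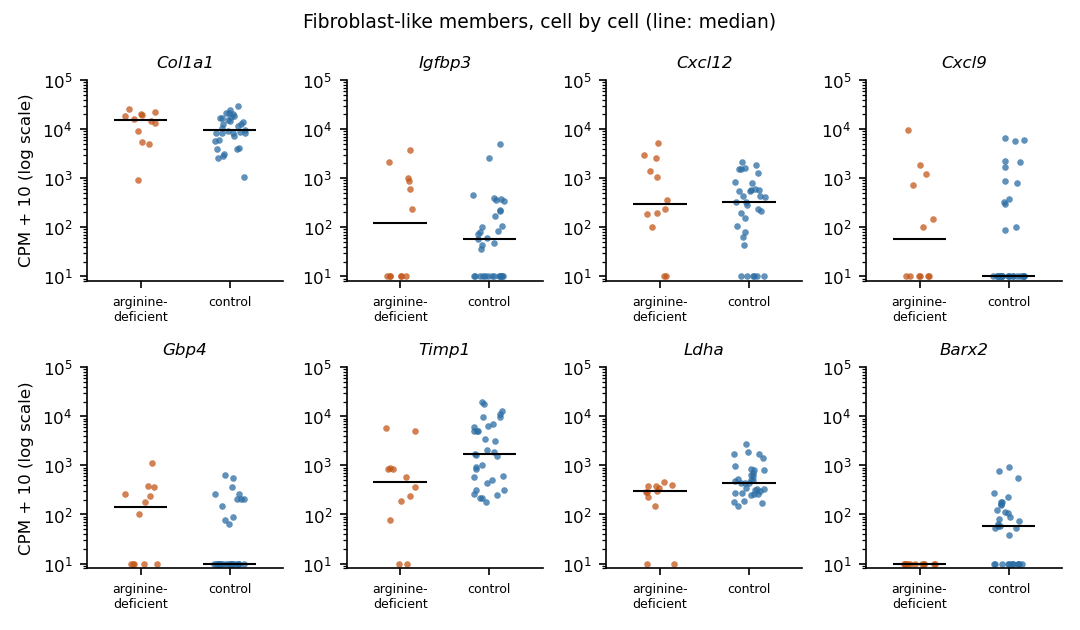
Level in each fibroblast-like member (y axis, CPM with 10 added, log scale) for 8 genes, 12 arginine-deficient cells at the left and 33 control cells at the right of each panel, with lines at the medians. Barx2 is at 0 in all 12 arginine-deficient cells, while for the other genes the cells of the libraries overlap.

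Genes induced by interferon gamma were mostly higher in the arginine-deficient fibroblast-like members. Of 19 measured, 17 were higher and 8 past 2-fold, against 56.1% and 5.15% of all measured genes. Their median log2 ratio was 0.90, against 0.09 over all measured genes. Cxcl9, a chemokine that draws CXCR3-bearing T cells, was at 2286 and 692 CPM (ratio interval 2.91 to 3.75), but 69.7% of its arginine-deficient UMIs lay in 1 cell, and 6 of 12 and 13 of 33 cells held any. Gbp4, a guanylate-binding GTPase, was at 326 and 96.5 CPM and was found in 7 of 12 cells (median 130 CPM) and 12 of 33 (median 0). Serpina3g, a serine protease inhibitor, was at 243 and 64.3 CPM, and Iigp1, an immunity-related GTPase, at 1422 and 780 CPM. Cd274, the ligand of the checkpoint receptor PD-1, ran the other way at 72.4 and 147 CPM, as did Nos2 at 10.3 and 50.2 CPM. The list's median was 1.21 without the deepest cells and 0.26 with every cell thinned to 2000 UMIs.

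The same list was also higher outside these cells, with a median of 0.73 over the other kept barcodes and 0.21 in the Col1a1-low members. Of 17 measured antigen presentation genes 11 were higher in the fibroblast-like members, near the 56.1% of all measured genes, with a median of 0.63. B2m, the light chain of MHC class I, was at 3750 and 2148 CPM, and H2-K1, a heavy chain, at 2969 and 1895 CPM. Cd74, the invariant chain of class II, was at 145 and 251 CPM, a log2 ratio of -0.77 that was 1.74 with no Ptprc and at most 3 C1q UMIs, where the other barcodes held 3510 and 1728 CPM. With equal weight for each cell the list's median was 0.02.

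The promoters of Gbp7 and Igtp, interferon-induced GTPases, are shown because they carry both elements by which interferons act on genes, and they were chosen after their values were seen. Gbp7 was at 259 and 77.2 CPM in the fibroblast-like members and Igtp at 140 and 77.2 CPM. Sequences are from RefSeq (GRCm38.p6), 5′ to 3′ on the gene's strand and ending at the base before the start. Capitals mark the gamma-activated site (TTC, any 3 bases and GAA, the same on both strands) and the core of the interferon-stimulated response element (TTTC, any 2 bases and TTTC, searched on both strands).
Gbp7: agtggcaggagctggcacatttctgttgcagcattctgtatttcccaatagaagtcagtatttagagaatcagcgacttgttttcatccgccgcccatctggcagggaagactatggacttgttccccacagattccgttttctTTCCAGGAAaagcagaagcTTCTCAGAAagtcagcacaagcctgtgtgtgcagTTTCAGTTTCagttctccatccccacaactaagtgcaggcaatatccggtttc
Igtp: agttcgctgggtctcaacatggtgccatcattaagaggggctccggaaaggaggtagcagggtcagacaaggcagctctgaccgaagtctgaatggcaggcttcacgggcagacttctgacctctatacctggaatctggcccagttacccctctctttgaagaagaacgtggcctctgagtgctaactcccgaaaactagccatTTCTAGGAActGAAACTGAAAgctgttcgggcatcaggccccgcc
The Gbp7 stretch lies on the plus strand at chr3:142530086-142530335 and has gamma-activated sites 106 to 98 and 87 to 79 bases before the start and a response element core 53 to 44 bases before it. The Igtp stretch lies on the plus strand at chr11:58199306-58199555, with a gamma-activated site 45 to 37 bases and a core on the opposite strand 34 to 25 bases before the start. Of 24 listed interferon gamma genes, 16 had a promoter in the table, and in the 250 bases upstream 9 of them (56.3%) held a gamma-activated site and 11 (68.8%) a core, against 7.05% and 3.05% of 27025 promoters. A match of letters is not a sign of binding.

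Secreted signals were unevenly placed. Cxcl12, which binds CXCR4 on leukocytes, was at 1572 and 485 CPM (log2 ratio 1.69, ratio interval 2.78 to 3.78). It was found in 10 of 12 cells (lowest 0, median 290, highest 5311 CPM) and 27 of 33 (0, 319 and 2152 CPM), so the medians were close and the gap lay in a few high arginine-deficient cells. Igfbp3, which binds insulin-like growth factors, was at 1216 and 304 CPM, with 49.8% and 61.9% of its UMIs in 1 cell of each library. Sfrp1, a secreted Wnt antagonist, was at 781 and 226 CPM in 9 of 12 and 22 of 33 cells, and Wnt5a, a Wnt ligand, at 134 and 39.9 CPM. Cxcl14 was at 2126 and 3414 CPM, a gap that vanished without the deepest cells (2708 and 2676 CPM), and Ccl2, a monocyte chemoattractant, was at 2384 and 2382 CPM. Il6, an inflammatory cytokine named after its values were seen, was at 445 and 376 CPM.

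Of 10 measured complement genes 7 were higher in the arginine-deficient fibroblast-like members, where 56.1% of all measured genes were, with a median log2 ratio of 0.59. C3, the central component, was at 890 and 390 CPM (ratio interval 1.88 to 2.76), in 9 of 12 and 29 of 33 cells, with 48.8% of its arginine-deficient UMIs in 1 cell. C1s1, a protease of the first component, was at 600.0 and 298 CPM, and Serping1, its inhibitor, at 2245 and 1340 CPM. Cd55, which breaks up convertases, was at 140 and 223 CPM. The median stayed between 0.38 and 0.95 over the alternatives tried. Among the receptors, Il1r1 (interleukin 1 receptor) was at 445 and 176 CPM and Il6st, the shared chain of interleukin 6 family receptors, at 341 and 162 CPM.

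The 13 measured contractile genes had 3 higher and a median log2 ratio of -0.17, and the 20 inflammatory fibroblast genes had 10 higher and a median of -0.10. Of all genes measured in the fibroblast-like members 56.1% were higher, with a median of 0.09, so the inflammatory count was near that share. The genes named next are among the lowest of these and other lists. Ptx3 was at 331 and 1155 CPM, in 6 of 12 and 23 of 33 cells, and Il11 at 31.0 and 121 CPM. Acta2 was at 129 and 252 CPM and Tagln at 150 and 373 CPM, in 5 of 12 and 14 of 33 and in 6 of 12 and 10 of 33 cells, and Cthrc1 was at 336 and 678 CPM. Over the alternatives tried, Tagln, Acta2 and Cthrc1 came to log2 ratios of -0.78, -0.64 and -0.35 at the values closest to 0. Igfbp6 was at 222 and 566 CPM, but its log2 ratio of -1.33 was -0.02 after thinning.

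Genes of glycolysis and hypoxia were lower in nearly every case. Of 18 measured, 1 was higher and 7 were past 2-fold lower, against 56.1% and 4.45% of all measured genes. Their median log2 ratio was -0.95, against 0.09 over all measured genes. It stayed between -1.11 and -0.68 over the alternatives tried. Ldha (lactate dehydrogenase) was at 274 and 695 CPM, in single cells from 0 through a median of 288 to 458 CPM and from 138 through 433 to 2659 CPM. Eno1 (enolase) was at 103 and 333 CPM, Gapdh at 657 and 1144 CPM, Adm (adrenomedullin) at 41.4 and 248 CPM, and Bnip3, a mitophagy protein induced by hypoxia, at 20.7 and 156 CPM. For Ldha the cells of the libraries overlapped, and the highest levels were all in control cells.

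The promoters of Pgk1 (191 and 395 CPM, phosphoglycerate kinase) and Bnip3 are shown for the core of the hypoxia response element (ACGTG, searched on both strands, in capitals as read on the gene's strand), from the same table and chosen after their values were seen.
Pgk1: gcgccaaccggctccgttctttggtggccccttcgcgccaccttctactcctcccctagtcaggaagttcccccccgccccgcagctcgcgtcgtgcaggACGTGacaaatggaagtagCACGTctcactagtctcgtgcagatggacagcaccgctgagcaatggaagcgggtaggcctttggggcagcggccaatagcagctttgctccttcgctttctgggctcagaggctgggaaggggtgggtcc
Bnip3: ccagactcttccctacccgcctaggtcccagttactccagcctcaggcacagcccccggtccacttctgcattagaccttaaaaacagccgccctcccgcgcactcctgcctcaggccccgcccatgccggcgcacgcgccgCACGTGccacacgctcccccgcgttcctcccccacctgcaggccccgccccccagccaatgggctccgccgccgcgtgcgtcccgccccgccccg
The Pgk1 stretch lies on the plus strand at chrX:106186850-106187099, with cores 150 to 146 bases before the start and, on the opposite strand, 131 to 127 bases before it. The Bnip3 stretch of 237 bases lies on the minus strand at chr7:138909520-138909756. It ends at the base before the start given by the GENCODE annotation, which lies upstream of the RefSeq start. Its overlapping cores on both strands lie 108 to 103 bases before the RefSeq start, and so nearer to the end of the printed stretch. Of 25 listed hypoxia and glycolysis genes 23 had a promoter in the table and 11 of these (47.8%) held the core, against 16.5% of all promoters.

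**Figure D4:**
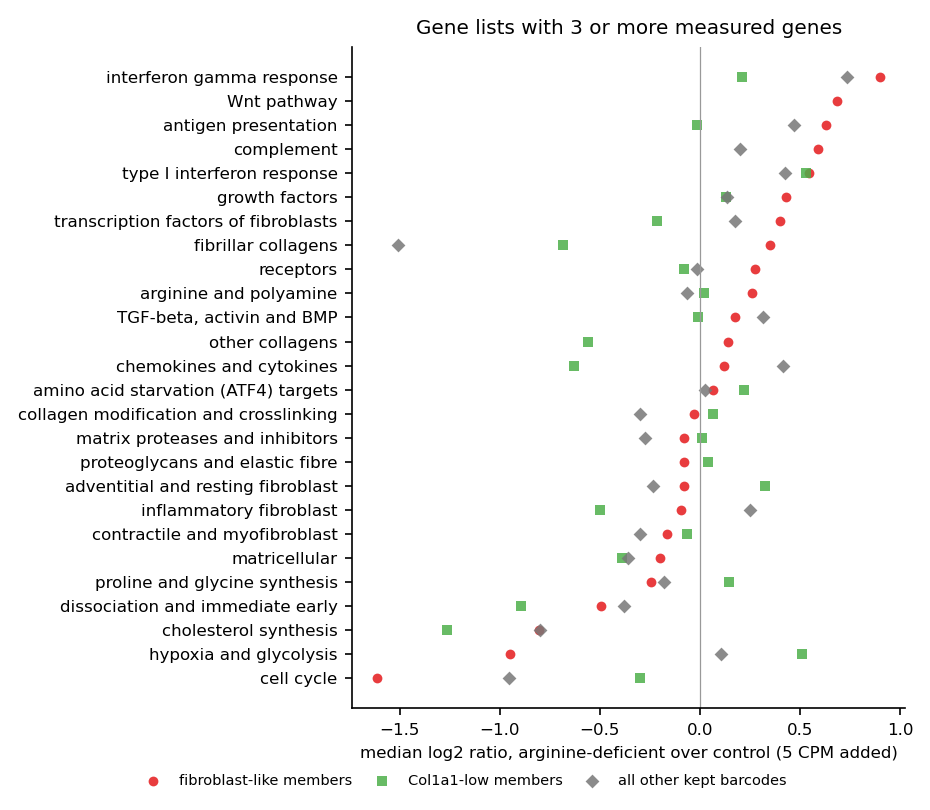
Median log2 ratio of arginine-deficient over control levels (x axis, 5 CPM added) for each gene list with at least 3 measured genes, in fibroblast-like members (red circles), Col1a1-low members (green squares) and all other kept barcodes (grey diamonds). Hypoxia and glycolysis lies at -0.95 in the fibroblast-like and at 0.51 in the Col1a1-low members.

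Genes that handle arginine lay on both sides in the fibroblast-like members. Of 9 measured 6 were higher, where 56.1% of all measured genes were. Of these 6, 0 were past 2-fold, and 1 of the list, Nos2, was past 2-fold lower. The list's median log2 ratio was 0.26, against 0.09 over all measured genes. Oat, which turns ornithine toward proline, was at 357 and 284 CPM, Sat1, a polyamine acetyltransferase, at 253 and 203 CPM, and Ddah1, which clears methylated arginine, at 305 and 356 CPM. Ass1, which makes the arginine precursor argininosuccinate, was at 155 and 127 CPM in these cells and at 1.96 and 0.608 CPM in the Col1a1-low members. Slc7a1, the arginine transporter, was too low to measure in the fibroblast-like members and at 75.2 and 91.6 CPM in the Col1a1-low ones. Targets of ATF4, the factor induced by amino acid shortage, had a median of 0.07 over 8 measured genes, of which 4 were higher.

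By the size of the gap alone, the genes named on the higher side were mostly weak. Chka, Mrtfb and Brinp3 led with log2 ratios of 2.96, 2.57 and 2.32, but Chka was found in 4 cells of each library and turned to -2.86 after thinning, and Brinp3 was at 316 and 59.2 CPM in 5 of 12 and 11 of 33 cells. On the lower side Serpinb2 was at 0 and 664 CPM, with all control UMIs in 6 of 33 cells. A floor of 3 UMIs makes it at least 42.8-fold lower. This floor, here and for the genes below, covers the counting of UMIs only and not which cells were captured. The 18.2% of control cells with Serpinb2 lie within the 26.5% that 0 of 12 cells allow. Barx2, a homeobox factor, was at 0 in 12 cells and at 127 CPM in 21 of 33, at least 8.21-fold lower. It was absent from all 205 Col1a1-low members and found in 0.167% and 0.241% of the C1q macrophages. After thinning, 7 of 32 control cells (21.9%, exact 95% interval 9.28% to 40.0%) still held it, while 0 of 12 in the arginine-deficient library allow a share of cells with a UMI of up to 26.5% by the same exact interval, and of 25% by the floor of 3 counts. Lmcd1 was at 0 and 158 CPM (at least 10.2-fold lower, 9 of 33 cells), Ptgis, the prostacyclin synthase, at 5.17 and 84.9 CPM, and Crabp1, a retinoic acid binding protein, at 31.0 and 466 CPM with 62.7% of the control UMIs in 1 cell.

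**Figure D5:**
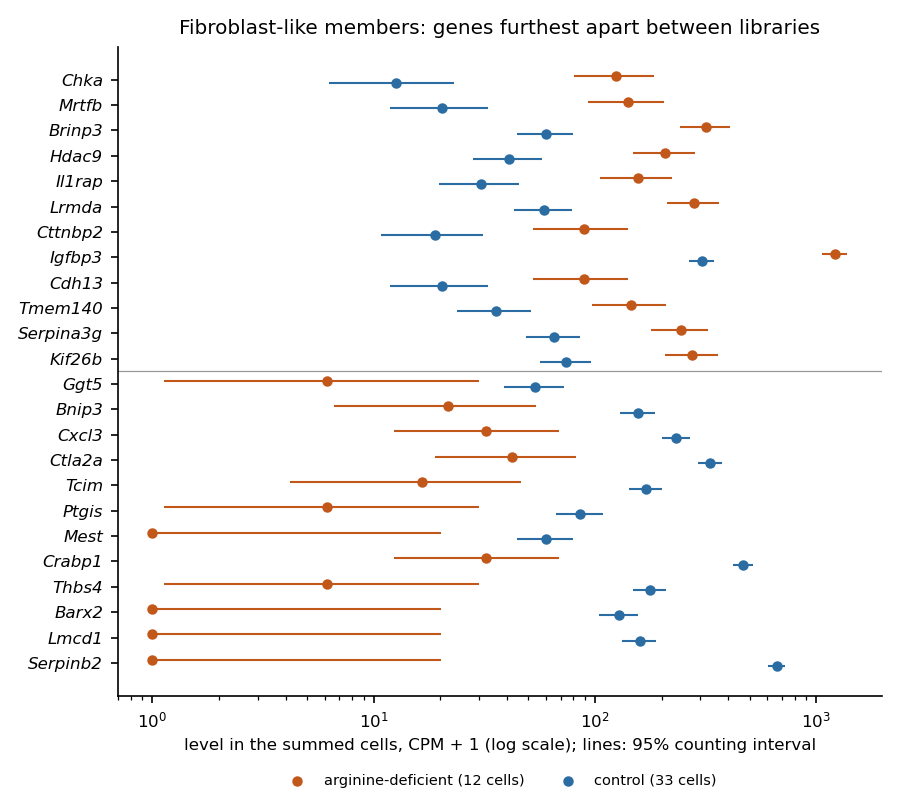
The 12 genes furthest higher and the 12 furthest lower in the arginine-deficient fibroblast-like members by the naming rule, with the level in each library (x axis, CPM with 1 added, log scale) and its 95% counting interval. Intervals of the libraries are separate for most genes, and Mest, Barx2, Lmcd1 and Serpinb2 are at 0 in the arginine-deficient library.

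The Col1a1-low members gave tighter values, being more and deeper cells. Of 3303 measured genes, 13 (0.394%) were at least 2-fold higher and 38 (1.15%) at least 2-fold lower in the arginine-deficient library, 1.54% either way, and 47.4% were higher by any amount. Pthlh, the parathyroid hormone-related protein, was at 100.1 and 10.9 CPM (ratio interval 6.67 to 12.7), in 14 of 43 and 24 of 162 cells, and Slurp1 at 83.8 and 13 CPM. Higd1a, a mitochondrial protein induced by hypoxia, was at 449.5 and 184 CPM, and Bnip3 at 218 and 99.1 CPM. Ifit1 and Ifit3, antiviral genes of the type I interferon response, were at 103 and 40.5 CPM and at 73.9 and 30.6 CPM. That list had 10 of 11 measured genes higher, where 47.4% of all measured genes were, with a median log2 ratio of 0.53 (0.17 after thinning), against 0.43 in the other kept barcodes.

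Hypoxia and glycolysis genes were higher in the Col1a1-low members in 16 of 17 measured cases, where 47.4% of all measured genes were. Their median log2 ratio was 0.51, with 1 gene past 2-fold, as were 0.394% of all measured genes. Gapdh was at 2280 and 1508 CPM, Ldha at 1270 and 927 CPM, Pgk1 at 1155 and 665 CPM and Mif at 991 and 531 CPM. In the other kept barcodes the median was 0.11, with Pgk1 at 664 and 693 CPM. The Col1a1-low members and the fibroblast-like members thus lay on opposite sides, 0.51 against -0.95, a difference that was not tested as each diet has 1 library.

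Lower in the arginine-deficient Col1a1-low members were cholesterol synthesis genes, 9 of 9 measured, with a median log2 ratio of -1.26. Of all genes measured in these members 47.4% were higher, with a median of -0.01. Fdps, which makes farnesyl pyrophosphate, was at 60.9 and 206 CPM, a log2 ratio of -1.68 that was -0.32 after thinning, and Hmgcs1, at the start of the pathway, at 48.4 and 150.4 CPM. Over the other kept barcodes the median was -0.80 with 0 of 7 higher, and in the fibroblast-like members -0.80 over 6 genes, but -0.12 without the deepest cells. Immediate early and stress genes, which tissue dissociation also induces, were lower in 18 of 20 cases in the Col1a1-low members, with a median of -0.89. They were led by Klf2 at 218 and 968 CPM, Fos at 934 and 2269 CPM and Dnajb1 at 463 and 1150 CPM. In the fibroblast-like members 20 of the 22 measured genes of this list were lower too, with a median of -0.49. Of all genes measured in those members 56.1% were higher. Klf2 stood at 265 and 759 CPM in the other kept barcodes, where the list's median was -0.38, and the part of handling in any of these results was not tested. Col3a1 was at 124 and 348 CPM in the Col1a1-low members and at 19.6 and 65.0 CPM in the other kept barcodes.

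The 2-fold genes of both kinds of members can be set side by side. Of 2563 genes measured in both, 84 were at least 2-fold higher in the fibroblast-like and 6 in the Col1a1-low members, and 3 in both, which is 3.57% of the former and 50% of the latter. On the lower side 88 and 28 genes shared 8, which is 9.09% and 28.6%. Over all genes measured in each kind, 5.15% and 0.394% were at least 2-fold higher, and 4.45% and 1.15% at least 2-fold lower. With so few such genes in the Col1a1-low members, the shared part of the fibroblast-like genes could only be small.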

How the data were processed

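The deposited matrices hold raw UMI counts of 32285 genes per barcode for 2 libraries made with droplet 3′ chemistry, per the labels' protocols. Reads were counted with Cell Ranger 7.0.1 per the file headers, while the submitters' processing notes name version 2.2.2 and GRCm38. Barcodes with at least 200 genes and at most 10% mitochondrial UMIs were kept, and members were taken by the rule given at the start. The members and the gene lists were chosen with earlier results of these data known.

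From the counts, CPM of summed UMIs and log2 ratios with 5 CPM added were computed, with exact Poisson or Clopper-Pearson 95% intervals that cover counting error only. Totals of 155927693 (arginine-deficient) and 191505551 (control) UMIs were deposited. Members were clustered with scanpy 1.11.5 and leidenalg 0.10.2 (1000 variable genes, 15 principal components, 15 neighbours, resolution 0.5, seed 1). Scrublet, with an expected share of 8%, called 6.37% and 5.09% of kept barcodes, which were left in. TMM factors came from edgeR 4.0.16, used for scaling only. Scripts were tested on simulated data.

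Genes were named by rule: the 12 highest and 12 lowest log2 ratios among measured genes found in at least 10% of the members of the higher library, at a level no lower than in other barcodes and with the same sign under equal cell weights. From each list came the 3 highest, the 3 lowest and the 3 most abundant genes. Genes of the membership rule, cell markers, co-detected genes, Gbp7, Igtp, Il6 and Ass1 were added after their values were seen. The 16 alternatives changed the CPM added, filter, scaling, cell weights, member rule, depth or clustering, and 3 of them, which leave out kinds of members or the deepest cells, were chosen after seeing the data. Some genes are not reported here.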

Additional observations from a re-analysis of the deposited data

Results flagged for a closer look

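The log2 ratio of arginine-deficient over control levels pointed in opposite directions in the kinds of members for hypoxia and glycolysis genes, with a median of -0.95 in the fibroblast-like members and 0.51 in the Col1a1-low members. Bnip3, a hypoxia-induced mitophagy gene of that list, had log2 ratios of -2.64 and 1.10. The difference between the kinds was not tested, as each diet has 1 library.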

How the results depend on the processing

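No paired analysis was possible because each diet has 1 library and no result comes from a test. Of the counts of genes, 57 values under the alternatives stayed within 1.5 times the reported one and 27 moved. Of the values of single genes and lists, 5786 stayed within the counting interval or, for lists, between the medians of their genes' interval bounds, 778 moved and 18 reversed. Reversed means a change of sign of a ratio of at least 2-fold (lists: a median of at least 0.5), and sign changes of smaller ratios are among those that stayed or moved. Genes at least 2-fold higher among all members (18) became 10 with 20 CPM added, 64 with no filter, 61 with equal weight per cell, 30 with no Ptprc and at most 3 C1q UMIs, 61 after thinning and 186 without Col1a1-low members. Those lower (38) became 24, 89, 61 (Ptprc and C1q limits), 118 (thinned) and 161 (without Col1a1-low members). In the fibroblast-like members, genes higher (186) became 89 with 20 CPM added, 1522 with no filter, 98 with TMM, 381 with equal weight and 19 thinned, and those lower (161) became 1397 with no filter, 268 with TMM, 275 with equal weight, 274 with the Ptprc and C1q limits and 44 thinned. Thinning left 450 measured genes. In the Col1a1-low members, genes higher (13) became 6, 56 and 52 and those lower (38) became 24, 78 and 116 with 20 CPM added, with no filter and thinned. Log2 ratios that reversed among all members were Slurp1 (-0.33), Slc1a2 (-0.33), Higd1a (-0.81) and Lcn2 (1.66) without Col1a1-low members, and Igfbp3 (-0.17), Cxcl12 (-0.31) and Itm2a (0.12) without fibroblast-like members. In the fibroblast-like members they were Anxa3 (0.055) and Fgf10 (-0.61) with equal weight, Anxa3 (1.03), Grem1 (-0.15), Klf2 (0.21) and Chka (-2.86) thinned, Grem1 (-2.92) without the deepest cells, and Ltbp4 (-4.58), Pcolce2 (-0.12) and Smoc2 (-1.68) with the Ptprc and C1q limits. In the Col1a1-low members, among ratios of at least 2-fold, Areg was at -0.081 with at least 10 UMIs of Dcn and Lum. The cause was not tested.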

Other observations

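Among control barcodes that met the rest of the rule but held no Dcn or Lum, 9 of 208, singled out after their values were seen, held all 866 UMIs of Rgs5, a marker of pericytes. In these 9, Rgs5 stood at 6119.9 CPM, Acta2 at 5717 CPM, Notch3 at 777 CPM and Pdgfrb at 452 CPM, with Xist at 890.4 CPM and Hmga2 at 0. In the arginine-deficient library 0 of 53 such barcodes held Rgs5. With so small a share in the control library, 53 barcodes are too few to show that such cells were rarer there.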
